A study of Mus musculus with 8 samples.

Results

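The 8 genes described here encode the anion exchanger of the red cell membrane and the membrane skeleton beneath it: Slc4a1, Epb42, Ank1, Sptb, Epb41, Dmtn, Add2 and Tmod1. They were taken by name from a table of raw counts for 56748 mouse genes, each matched 1 row, and all 8 passed the filter on low counts among 14723 genes tested. Messenger RNA was sequenced from peripheral blood mononuclear cells of wild-type male C57BL/6J mice, which began gavage as adults of 8 weeks. There were 3 libraries from mice given fucoidan, a sulphated polysaccharide of brown seaweed, here from Undaria pinnatifida, at 200 mg per kg daily for 1 month, and 5 libraries from mice given saline for the same time. All mice were kept on a standard diet, blood was drawn by cardiac puncture, cells were separated on a density gradient, and each library is titled as a biological replicate. The comparison asks how oral fucoidan changes the transcripts and the cell makeup of blood mononuclear cells.

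The red cell skeleton is a mesh of spectrin tetramers tied together at short actin filaments and fixed to the lipid bilayer at anchoring complexes. In one anchor, ankyrin links beta spectrin to the anion exchanger, with the Epb42 protein beside it; at the actin junctions, the Epb41 protein, dematin, adducin and tropomodulin hold spectrin to actin and cap the filaments. Inherited loss of several of these proteins gives spherical, elliptical or fragile red cells in humans and mice. Mature mammalian red cells have no nucleus, so red cell transcripts in blood are those that reticulocytes and young red cells still hold; a density gradient is meant to leave most red cells out of a mononuclear fraction.

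All 8 genes were higher with fucoidan, by log2 1.92 to 2.72 (3.79-fold to 6.60-fold), with a median log2 change of 2.30 against -0.04 over all genes tested. All 8 passed edgeR's quasi-likelihood test at a Benjamini-Hochberg adjusted p under 0.05, the threshold for a call throughout, and in all 8 the lowest fucoidan library lay above the highest saline library. Of all genes tested, 9.11% were called higher, 4.65% lower, and 11.6% were higher without overlap between the groups. In blood RNA, more red cell material among the cells and more transcript per red cell cannot be told apart. Haemoglobin transcripts moved with these genes: they took 14.2, 13.5 and 24.1% of counts in fucoidan libraries 1 to 3, against 5.59, 4.55, 8.48, 4.89 and 3.51% in saline libraries 1 to 5 (exact two-sided permutation p = 0.0357, the smallest that 56 arrangements allow).

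Promoter sequences from RefSeq, on build GRCm38.p6, were matched for 5 of the 8 genes in 7 windows of 300 bases, from 250 before to 50 after a transcription start; 3 of the windows belong to Epb41. They are shown, as 1 window per gene, because these genes rose together and because GATA and KLF factors are known regulators of erythroid genes. For Epb41 window 1 is printed. Its windows 2 and 3 are not printed: window 2 held a GATA motif without a KLF motif, and window 3 held KLF motifs without a GATA motif. Capitals mark matches on either strand to a GATA motif (AGATAA as the main form, with TGATAA and also AGATAG, and lastly TGATAG, as its variants) or a KLF motif (CCNCNCCC), and adjoining matches run together.
Epb42, chr2:121036828-121037127, minus strand: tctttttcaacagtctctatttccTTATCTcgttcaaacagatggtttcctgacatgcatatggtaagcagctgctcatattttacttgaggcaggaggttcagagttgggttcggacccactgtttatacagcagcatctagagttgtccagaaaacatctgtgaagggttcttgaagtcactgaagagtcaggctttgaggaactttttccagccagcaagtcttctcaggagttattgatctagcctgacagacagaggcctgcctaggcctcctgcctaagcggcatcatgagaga
Sptb, chr12:76710498-76710797, minus strand: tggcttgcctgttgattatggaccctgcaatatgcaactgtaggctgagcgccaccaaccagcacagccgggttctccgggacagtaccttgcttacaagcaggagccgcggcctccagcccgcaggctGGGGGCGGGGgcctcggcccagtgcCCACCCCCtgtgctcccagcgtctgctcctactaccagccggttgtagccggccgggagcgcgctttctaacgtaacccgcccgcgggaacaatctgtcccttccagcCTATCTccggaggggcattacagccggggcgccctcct
Add2, chr6:86028431-86028730, plus strand: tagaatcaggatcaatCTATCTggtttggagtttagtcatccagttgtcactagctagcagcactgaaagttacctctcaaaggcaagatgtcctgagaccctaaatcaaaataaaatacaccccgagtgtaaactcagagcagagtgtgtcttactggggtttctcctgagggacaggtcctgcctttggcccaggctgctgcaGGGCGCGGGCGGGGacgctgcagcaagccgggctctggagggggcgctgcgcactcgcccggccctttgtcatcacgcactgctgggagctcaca
Epb41, chr4:132075264-132075563, minus strand: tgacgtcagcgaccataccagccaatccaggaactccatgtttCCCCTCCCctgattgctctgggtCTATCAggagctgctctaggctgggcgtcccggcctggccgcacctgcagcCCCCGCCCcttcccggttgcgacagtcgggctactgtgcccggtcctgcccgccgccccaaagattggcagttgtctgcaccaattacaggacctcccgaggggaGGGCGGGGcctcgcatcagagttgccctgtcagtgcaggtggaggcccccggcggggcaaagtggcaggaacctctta
Tmod1, chr4:46038972-46039271, plus strand: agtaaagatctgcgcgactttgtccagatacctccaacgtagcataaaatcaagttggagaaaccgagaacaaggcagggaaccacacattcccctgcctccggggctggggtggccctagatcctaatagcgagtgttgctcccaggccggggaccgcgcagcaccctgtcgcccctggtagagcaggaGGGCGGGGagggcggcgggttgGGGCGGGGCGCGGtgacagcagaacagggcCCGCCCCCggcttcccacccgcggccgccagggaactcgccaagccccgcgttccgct
A GATA motif lay in 5 of the 7 windows and a KLF motif in 5 of the 7, where 29.8% and 49.5% of all 32851 windows of that length hold one. Epb42 held a GATA motif without a KLF motif, and Tmod1 held KLF motifs without a GATA motif. The main GATA form was matched in Epb42 only, and the other GATA matches were variants. With 7 windows, of which 3 belong to Epb41, these shares were not tested against those of all windows. A match of letters is not a binding site, and no binding was measured here.

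Among the genes of the ankyrin anchor, Slc4a1, the exchanger of chloride and bicarbonate that lets red cells carry carbon dioxide (ENSMUSG00000006574, GRCm39 chromosome 11, 102239650 to 102257029), had 725, 877 and 1824 CPM in the fucoidan libraries, against 193, 137, 418, 203 and 136 CPM in the saline libraries. CPM is the count scaled to a common library size after TMM normalization. The fold change was 5.25 (log2 2.39, SE 0.383, adjusted p = 0.00396). Fucoidan library 3 and saline library 3 were the highest of their groups, and this held for all 8 genes.

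Epb42 encodes a transglutaminase-like protein without enzyme activity that binds the exchanger and ankyrin (ENSMUSG00000023216, chromosome 2, 120848372 to 120867553). It had 69.6, 68.2 and 161 CPM in fucoidan libraries, against 14.8, 12.7, 39.9, 22.1 and 10.7 CPM in saline libraries (log2 2.31, SE 0.410, adjusted p = 0.00515). Fucoidan libraries 1 and 2 were nearly level, and both lay 1.71-fold or more above saline library 3. Ank1, the erythroid ankyrin (ENSMUSG00000031543, chromosome 8, 23464860 to 23640513), had 36.6, 56.0 and 125 CPM in fucoidan libraries, against 11.3, 9.51, 25.9, 14.5 and 8.40 CPM in saline libraries (log2 2.38, SE 0.406, adjusted p = 0.00468). The spread within fucoidan was wide for Ank1, its highest library standing 3.41-fold above its lowest.

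Sptb encodes the erythroid beta spectrin, which carries the binding sites for ankyrin and for actin (ENSMUSG00000021061, chromosome 12, 76627262 to 76757321). It had 98.2, 138 and 255 CPM in fucoidan libraries, against 33.9, 38.8, 72.3, 44.4 and 26.4 CPM in saline libraries, the smallest of the 8 rises at 3.79-fold (log2 1.92, SE 0.328, adjusted p = 0.00468). Plekhg3 overlaps Sptb on the other strand and had 82.4% as many counts as Sptb over all libraries. Whether counting used strand is not known here, so reads of the pair may not all be kept apart. Plekhg3 itself had 59.4 ± 11.03 CPM after fucoidan (SD, n = 3) and 61.5 ± 4.25 CPM after saline (SD, n = 5), and edgeR did not call it (adjusted p = 0.855).

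**Figure D1:**
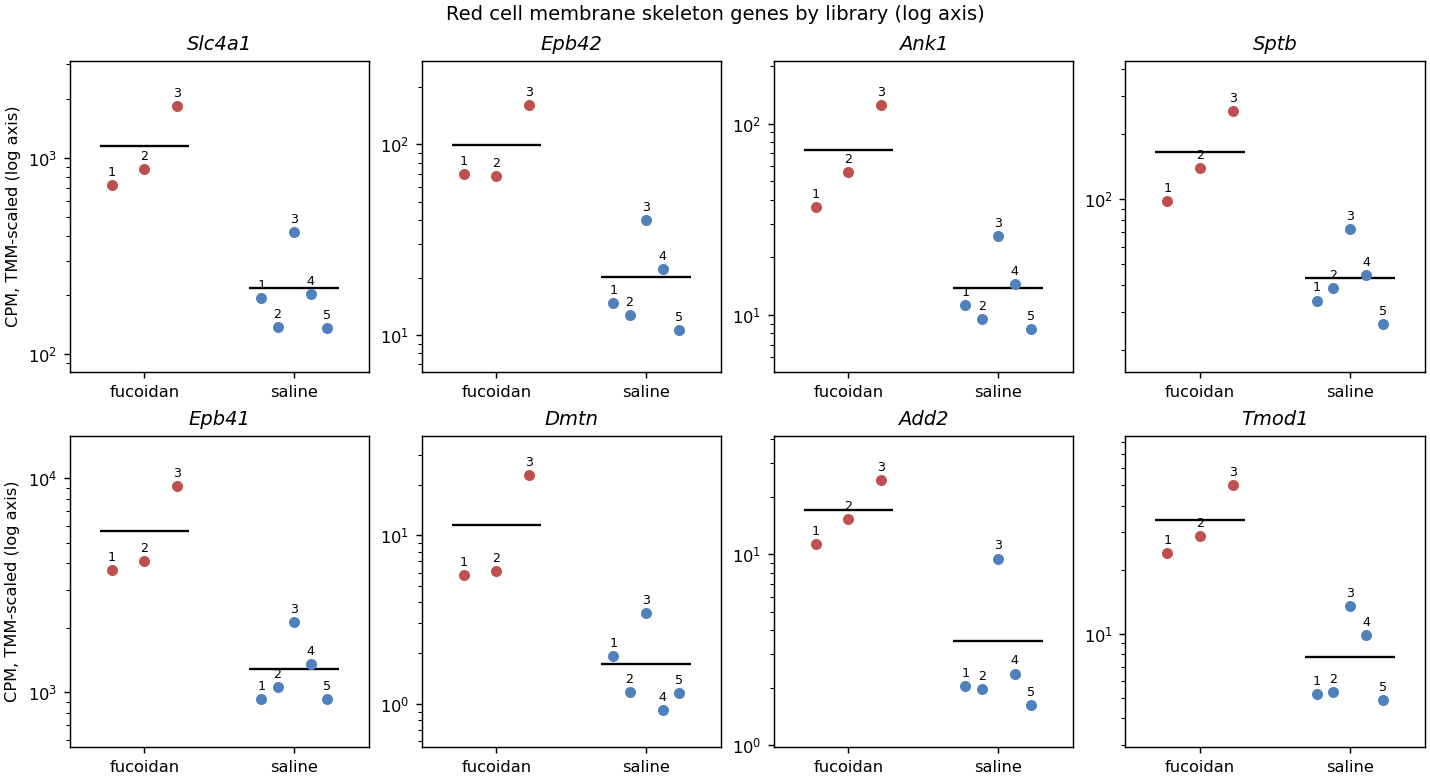
TMM-scaled CPM of each of the 8 genes on a log axis, 1 point per library numbered by replicate, with fucoidan (3 libraries, red) left of saline (5 libraries, blue) and a black line at each group's mean. In every panel the fucoidan points lie above the saline points and the libraries numbered 3 are the highest of their groups.

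At the actin junction, Epb41 encodes the protein that strengthens the bond of spectrin with actin and ties it to glycophorin C (ENSMUSG00000028906, chromosome 4, 131650724 to 131802632). It had 3711, 4082 and 9226 CPM in fucoidan libraries, against 926, 1057, 2123, 1359 and 928 CPM in saline libraries (log2 2.15, SE 0.336, adjusted p = 0.00396). It was by far the most counted of the 8, with 78.6 ± 0.979% of their summed counts after fucoidan (SD, n = 3) and 81.03 ± 2.66% after saline (SD, n = 5), shares that overlapped between the groups. Dmtn, which encodes the actin-bundling dematin (ENSMUSG00000022099, chromosome 14, 70838703 to 70873488), was the least counted, with 80 to 207 counts in fucoidan libraries and 16 to 56 in saline libraries. It had 5.81, 6.11 and 22.8 CPM in fucoidan libraries, against 1.92, 1.182, 3.47, 0.925 and 1.16 CPM in saline libraries, the largest of the 8 rises at 6.60-fold (log2 2.72, SE 0.513, adjusted p = 0.00629). Much of that size lay in fucoidan library 3, without which the log2 change was 1.80 (adjusted p = 0.0340).

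Add2, the beta adducin that helps spectrin onto actin filament ends (ENSMUSG00000030000, chromosome 6, 86005663 to 86101391), had 11.4, 15.2 and 24.4 CPM in fucoidan libraries, against 2.04, 1.97, 9.49, 2.37 and 1.63 CPM in saline libraries. Its log2 change was 2.28 (SE 0.514, adjusted p = 0.0137), and the gap between the groups was the narrowest of the 8, since saline library 3 reached 9.49 CPM and the lowest fucoidan library 11.4 CPM. Without saline library 3 the log2 change of Add2 was 3.08. Tmod1, the tropomodulin that caps the slow-growing ends of the actin filaments (ENSMUSG00000028328, chromosome 4, 46038935 to 46116032), had 23.9, 28.8 and 50.0 CPM in fucoidan libraries, against 5.20, 5.29, 13.5, 9.88 and 4.88 CPM in saline libraries (log2 2.14, SE 0.345, adjusted p = 0.00401). Tstd2 overlaps Tmod1 on the other strand, with 146% as many counts, and stood at 22.01 ± 1.08 CPM after fucoidan (SD, n = 3) and 21.5 ± 2.17 CPM after saline (SD, n = 5), without a call by edgeR (adjusted p = 0.893). For the other overlaps, in Ank1, Epb41 and Add2, the overlapping genes had at most 0.568% as many counts.

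Without fucoidan library 3, 6 of the 8 genes passed: Epb42 (log2 1.80, adjusted p = 0.0503) and Add2 (log2 1.94, adjusted p = 0.107) did not, and Ank1 stood at log2 1.75. Without a filter on low counts, which raised the genes tested to 27847, 3 of the 8 passed, and Epb42, Ank1, Sptb, Dmtn and Add2 had adjusted p = 0.0627, 0.0545, 0.0519, 0.0665 and 0.130. With both libraries numbered 3 left out, an alternative chosen after seeing the data, all 8 passed with log2 1.73 to 2.74. With the replicate number as a block all 8 passed, while over all genes 439 were called lower, against 684 without the block. In that fit saline libraries 4 and 5, which have no fucoidan library of the same number, do not inform the group change.

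Levels were compared between genes as CPM per kilobase of the deposited gene length, which may exceed the length of the transcript that red cells make. On that scale, after fucoidan (mean ± SD, n = 3), Epb41 stood at 346 ± 188, Slc4a1 at 234 ± 122, Epb42 at 18.4 ± 9.80 and Sptb at 13.5 ± 6.71. Next came Tmod1 at 8.67 ± 3.51, Ank1 at 5.36 ± 3.43, Add2 at 1.68 ± 0.663 and Dmtn at 1.18 ± 0.990. After saline (mean ± SD, n = 5), Epb41 stood at 78.0 ± 30.8, Slc4a1 at 44.5 ± 23.8, Epb42 at 3.70 ± 2.204 and Sptb at 3.55 ± 1.45, followed by Tmod1 at 1.97 ± 0.970, Ank1 at 1.03 ± 0.523, Add2 at 0.345 ± 0.331 and Dmtn at 0.177 ± 0.106. The order of the 8 levels was the same in all 3 fucoidan libraries, and in saline libraries each neighbour pair but 1 kept it in all 5. The exception was Epb42 over Sptb, which held in 3 of 3 fucoidan and 2 of 5 saline libraries. Add2 and Dmtn came as close as 1.04-fold in a fucoidan library and 1.02-fold in a saline library.

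Within the summed counts of the 8 genes, Slc4a1 made up 15.9 ± 0.634% after fucoidan (SD, n = 3) and 13.4 ± 2.33% after saline (SD, n = 5), and Sptb made up 2.30 ± 0.282% after fucoidan and 2.73 ± 0.260% after saline. The shares of all 8 genes overlapped between the groups. The summed counts themselves were 0.428, 0.497 and 0.813% of all counts in fucoidan libraries, against 0.130, 0.144, 0.276, 0.185 and 0.130% in saline libraries.

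Set against haemoglobin, the 8 genes did not pass a test in either direction. In an edgeR fit with the summed counts of Hba-a1, Hba-a2, Hbb-bs and Hbb-bt as library size, 93.4% of 14719 genes were called lower with fucoidan and 0 higher, and 0 of the 8 genes were called. The median log2 change per haemoglobin count was 0.25 over the 8 genes and -2.09 over all genes. The lack of a call was not particular to the 8. Of the 18 platelet markers described below, 0 were called per haemoglobin count, at a median of -0.58. Of the 19 erythroid markers other than haemoglobin, 3 were called lower and 0 higher, at a median of -0.13. Slc4a1 had 46.7, 61.1 and 52.6 counts per 10000 haemoglobin counts in fucoidan libraries, against 37.7, 34.3, 50.3, 46.6 and 45.1 in saline libraries, with overlap. Its log2 change per haemoglobin count was 0.32, with a 95% interval of -0.56 to 1.204 (adjusted p = 0.481). Epb41 had 239, 284 and 266 per 10000 in fucoidan libraries, against 181, 264, 255, 311 and 308 in saline libraries, and a log2 change of -0.00330 (95% interval -0.86 to 0.85). The values of the other genes were 0.25 for Epb42, 0.25 for Ank1, -0.18 for Sptb, 0.53 for Dmtn, 0.41 for Add2 and 0.084 for Tmod1, with intervals that together ran from -1.08 to 1.58. These intervals are wide, so the absence of a call does not show that the genes were level per haemoglobin count. Over 10 alternatives of this edgeR fit, the smallest adjusted p was 0.0523 for Slc4a1 and 0.0567 for Epb42, and 0 of the 8 genes were called. With the other 19 measured erythroid markers as library size in place of haemoglobin, an alternative chosen after seeing the data, the 8 values ran from -0.27 to 0.41 and 0 were called, where 94.5% of genes were.

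**Figure D2:**
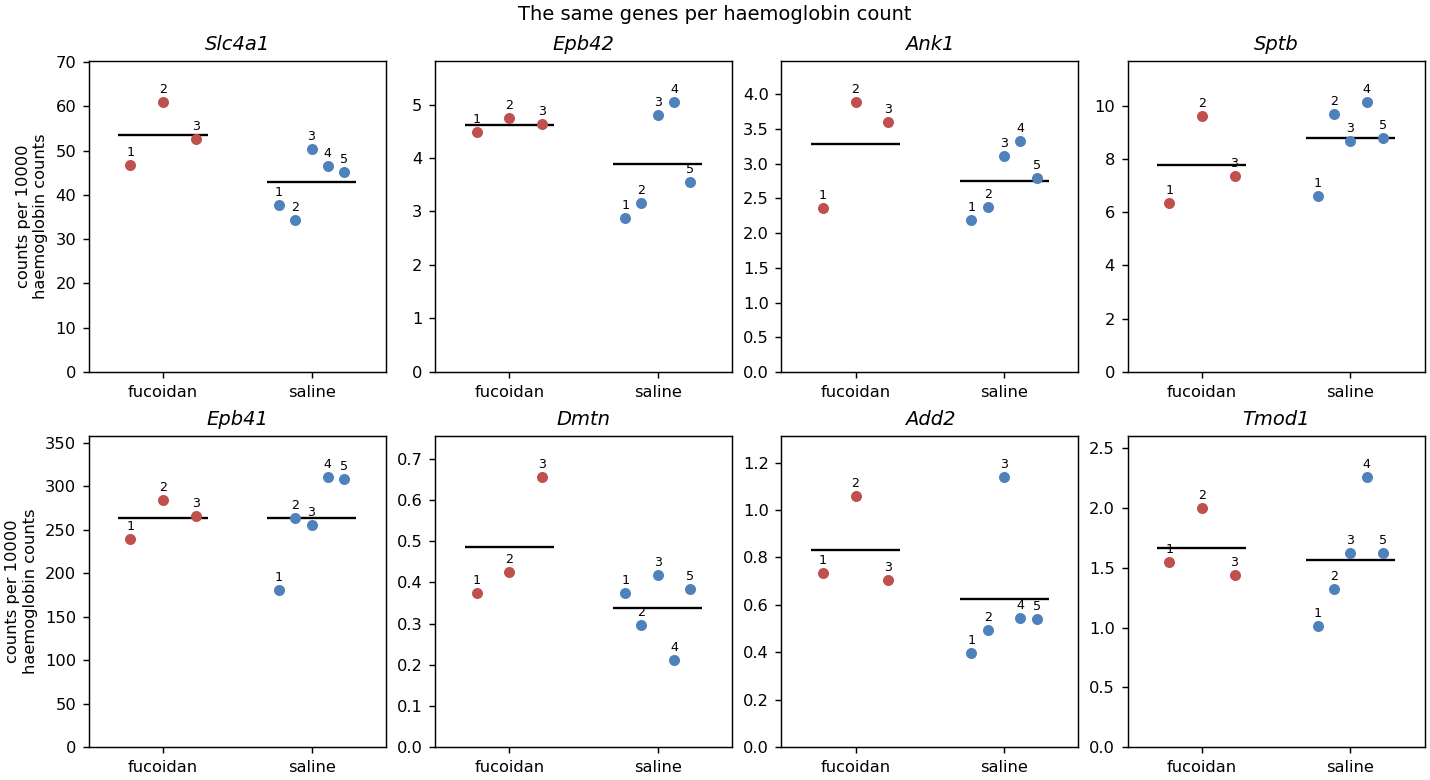
Counts of each gene per 10000 haemoglobin counts, on linear axes from 0, 1 point per library numbered by replicate, fucoidan (red) left of saline (blue), with a black line at each group's mean. The groups overlap in all 8 panels.

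**Figure D3:**
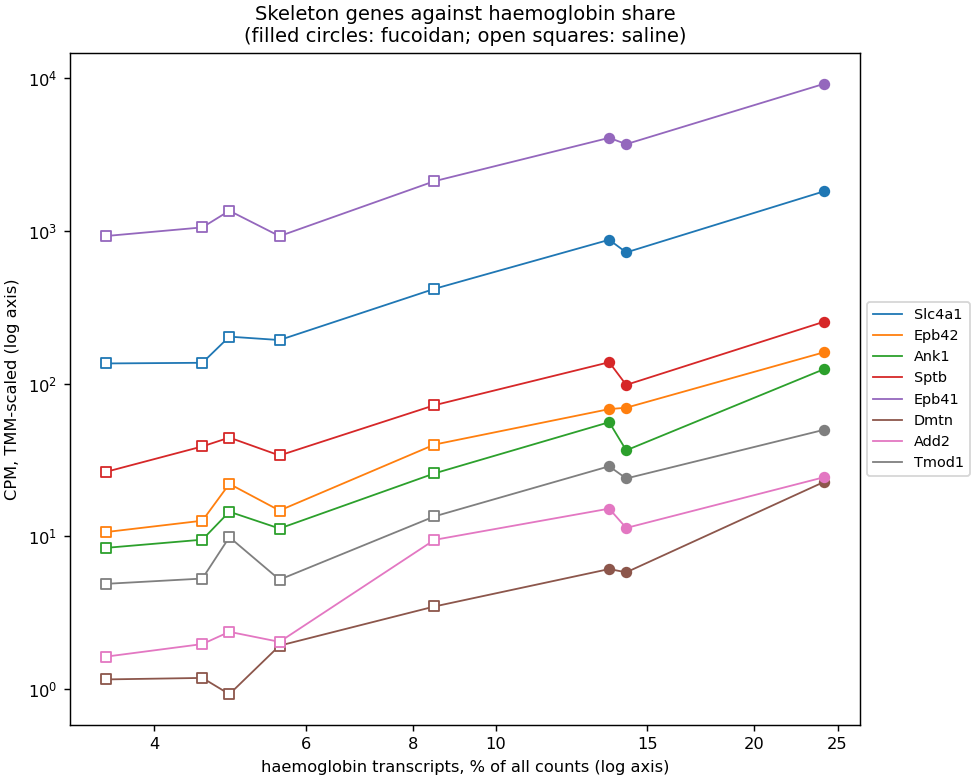
TMM-scaled CPM of the 8 genes (log axis) against haemoglobin transcripts as a percentage of all counts in each library (log axis), with filled circles for the 3 fucoidan and open squares for the 5 saline libraries. Lines join the libraries of 1 gene. Saline library 3, at 8.48% haemoglobin, lies between the other saline libraries (3.51 to 5.59%) and the fucoidan libraries (13.5 to 24.1%) for all 8 genes.

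Of 9 other genes of the skeleton tested, 4 rose and 1 fell; their median log2 value was 0.24. Among the risers were Mpp1, a palmitoylated scaffold that binds the Epb41 protein and glycophorin C (490 ± 170 CPM after fucoidan, n = 3, and 144 ± 42.3 CPM after saline, n = 5; log2 1.77, SE 0.244, adjusted p = 0.00396); the tropomyosin gene Tpm1 (log2 1.17, SE 0.196); and the gamma actin gene Actg1 (log2 0.60, SE 0.147, adjusted p = 0.0202). Actg1 was not called without saline library 4 or 5 or fucoidan library 3 (adjusted p = 0.0626, 0.0515 and 0.0778). Add3, the gamma adducin found in many tissues, fell to 345 ± 5.60 CPM after fucoidan (SD, n = 3), against 558 ± 45.8 CPM after saline (SD, n = 5), at log2 -0.69 (SE 0.107, adjusted p = 0.00396). Add1, the alpha adducin that pairs with either of the others, was at 0.044 (95% interval -0.21 to 0.30), Tmod3 at 0.019 (-0.22 to 0.26), Actb at 0.24 (-0.14 to 0.62) and Tpm3 at 0.12 (-0.13 to 0.36), all without a call. Per haemoglobin count 7 of the 9 were called lower, where 93.4% of all genes tested were, and Mpp1 did not pass (adjusted p = 0.503).

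Paralogues known mainly from other tissues showed no common direction. Of 30 listed, 23 were tested, 2 rose and 2 fell; the median log2 value was 0.0012. Ank3, the ankyrin best known from neurons and epithelia, rose at a low level: it had 1.94, 2.29 and 3.85 CPM in fucoidan libraries, against 0.396, 0.788, 0.744, 0.694 and 0.368 CPM in saline libraries (log2 2.14, SE 0.371, adjusted p = 0.00482). The transglutaminase gene Tgm2 rose by log2 0.88 (SE 0.152, adjusted p = 0.00482), and the bicarbonate transporter gene Slc4a7 was at -0.56 (SE 0.158, adjusted p = 0.0384), a call lost on leaving out any one library other than saline library 1 or fucoidan library 2 (adjusted p = 0.0511 to 0.179). The other faller was Add3. Sptbn1 and Sptan1, the spectrins of most nucleated cells and named here after their values were seen, were at 0.089 (95% interval -0.20 to 0.38) and 0.10 (-0.11 to 0.31) without a call, as was Ablim1, which shares the villin headpiece with dematin, at -0.057 (-0.29 to 0.18).

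**Figure D4:**
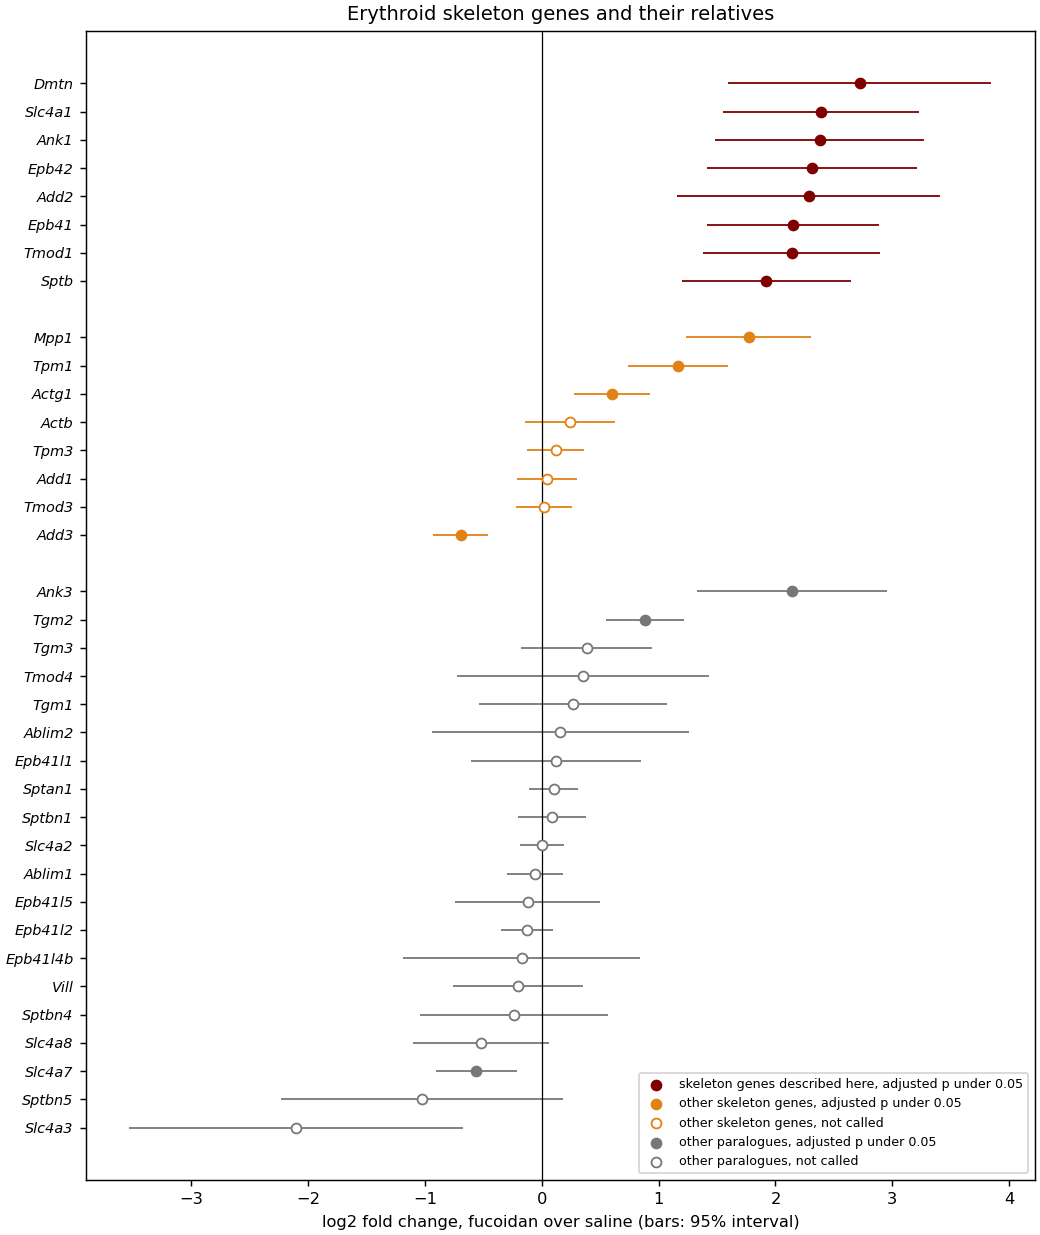
Log2 fold change of fucoidan over saline with 95% intervals for the 8 genes (dark red), the other skeleton genes reported (orange) and the remaining tested paralogues (grey), filled where the adjusted p was under 0.05 and open otherwise. The 8 genes stand between 1.92 and 2.72, while Sptbn1, Sptan1, Add1 and Tmod3 lie near 0.

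Levels per kilobase were also set against those of relatives within each library. Add2 stood at 0.0248, 0.0342 and 0.0425 of Add1 in fucoidan libraries, against 0.00434, 0.00444, 0.0185, 0.00463 and 0.00361 in saline libraries. Tmod1 stood at 0.193, 0.239 and 0.336 of Tmod3 in fucoidan libraries, against 0.0411, 0.0446, 0.0958, 0.0759 and 0.0378 in saline libraries. Beta adducin and tropomodulin 1 transcripts thus stayed below those of their widely expressed relatives in every library. Sptb stood at 0.465, 0.523 and 0.962 of Sptbn1 in fucoidan libraries and at 0.184, 0.150, 0.297, 0.180 and 0.115 in saline libraries. These 3 ratios did not overlap between the groups. They restate the rise of Sptb, Add2 and Tmod1, since Sptbn1, Add1 and Tmod3 hardly moved (log2 0.089, 0.044 and 0.019). The ratio of Ank1 to Ank3 did overlap, at 48.7, 62.9 and 83.4 in fucoidan libraries, against 73.2, 31.1, 89.5, 53.9 and 58.9 in saline libraries. None of the ratios was tested.

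**Figure D5:**
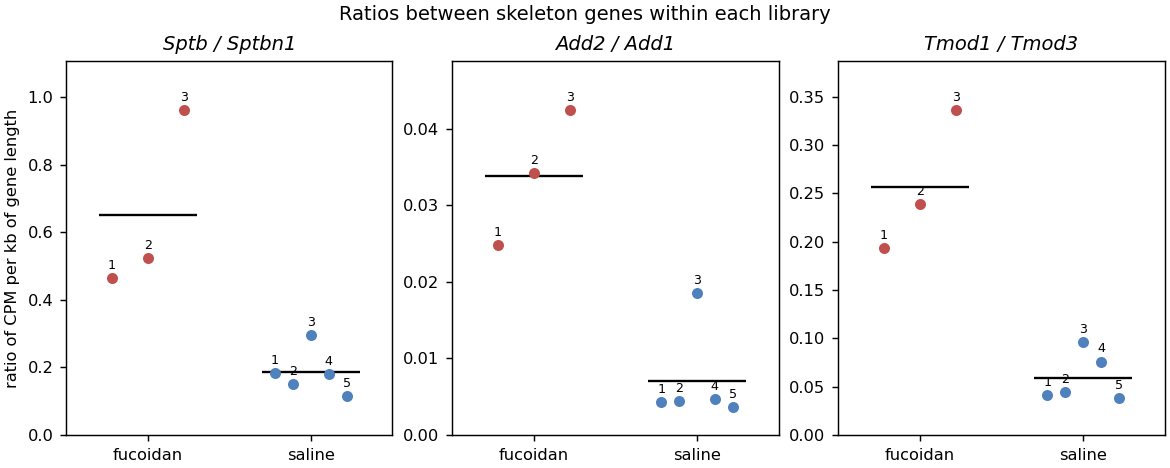
Ratios of CPM per kilobase between Sptb and Sptbn1, Add2 and Add1, and Tmod1 and Tmod3 in each library, on linear axes from 0, fucoidan (red, 3 libraries) left of saline (blue, 5 libraries), with a black line at each mean. The 3 ratios plotted are higher in every fucoidan library than in any saline library; that of Ank1 to Ank3, which overlapped, is not plotted.

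Among other proteins of the red cell membrane, 11 of 21 tested genes rose and 1 fell; their median log2 value was 0.73. Kel, the Kell endopeptidase, rose by log2 2.35 (SE 0.364), the complement inhibitor gene Cd59a by 1.88 (SE 0.300) and the water channel gene Aqp1 by 1.72 (SE 0.251), each with adjusted p = 0.00396. Gypc, the anchor of the Epb41 protein, rose by only 0.73 (SE 0.175, adjusted p = 0.0180) and overlapped between the groups; it did not pass with the replicate number as a block (adjusted p = 0.0807) or without fucoidan library 2 or 3 (0.0501 and 0.0934). The faller was the urea transporter gene Slc14a1, at 16.5 ± 3.94 CPM after fucoidan (SD, n = 3) and 38.4 ± 10.1 CPM after saline (SD, n = 5; log2 -1.23, SE 0.233, adjusted p = 0.00639). Gypc and Slc14a1 were named after their values were seen. The mechanosensitive channel gene Piezo1 was at 0.019 (SE 0.0952) and the glucose transporter gene Slc2a1 at -0.18 (SE 0.170), without a call. Icam4 was at 0 counts in all 8 libraries.

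The 8 genes kept a close rank across libraries with some other genes. Over 8 libraries, of 8400 protein-coding genes with a mean of at least 10 CPM, those most like the mean log2 CPM of the 8 were Dhrs11, Ube2l6, Bpgm, Slc25a39 and Rnf10, with Pearson's r of 0.998 for each. With group means subtracted, the 5 highest were Ube2l6, Dhrs11, Nusap1, Rnf10 and Bpgm, with r of 0.993 to 0.996. These are descriptions over libraries that share 1 split into groups and 2 high libraries numbered 3. Bpgm, which makes the bisphosphoglycerate that tunes oxygen release in red cells, had 6354 ± 3689 CPM after fucoidan (SD, n = 3) and 1305 ± 594 CPM after saline (SD, n = 5). The spindle-associated gene Nusap1 had 86.9 ± 39.2 CPM after fucoidan (SD, n = 3) and 20.8 ± 8.29 CPM after saline (SD, n = 5).

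Other erythroid genes rose over the same libraries. Of 23 erythroid markers tested, 21 rose and 0 fell; the median log2 value was 1.97, beside summed levels of 162900 to 388000 CPM after fucoidan and 33890 to 92780 CPM after saline. They include Hba-a2 (log2 3.04), Tspo2 (2.59), Trim10 (2.37) and Fam210b (1.73). The other haemoglobin genes rose less than Hba-a2: Hba-a1 by 2.17, Hbb-bs by 1.95 and Hbb-bt by 1.97. Tfrc, the transferrin receptor that early red cells shed, was at -0.02 and the haem enzyme gene Cpox at 0.30, both without a call. Of 7 erythroid regulators tested, 5 rose, among them Tal1 (log2 1.56, SE 0.300), Gata1 (1.47, SE 0.290), Nfe2 (1.10, SE 0.223) and Zfpm1 (0.70, SE 0.137), whereas Lmo2 and Ldb1 were at 0.21 and -0.13 without a call. Tal1, Gata1 and Nfe2 did not pass without a filter on low counts (adjusted p = 0.0755, 0.0719 and 0.0509). Klf1, with 38 counts over all libraries, was not tested. The median log2 value of the 7 regulators was 1.10, and which blood cells held their transcripts was not tested. Of 7 genes of dividing precursors, Kit and Epor rose, by log2 1.06 and 1.58, and Mki67, at 0.63, did not pass (adjusted p = 0.258). Without fucoidan library 3, Epor did not pass (adjusted p = 0.0539). Without both libraries numbered 3, chosen after seeing the data, neither Kit nor Epor passed edgeR's test (adjusted p = 0.0554 and 0.0694). Mki67 did pass it without saline library 2 (log2 0.94, adjusted p = 0.0410).

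Platelet genes moved in the same libraries. Of 19 platelet markers listed, 18 were tested and 18 rose, at a median log2 value of 1.54 and summed levels of 10050 to 21260 CPM after fucoidan and 3329 to 6969 CPM after saline. Alox12, Treml1, Gng11 and Rgs18 rose by log2 1.60, 1.61, 1.54 and 1.46. The part of platelets in the levels of the 8 genes was not tested. Of 18 leukocyte markers, none at 0 in any library, 4 rose and 2 fell; the median log2 value was -0.06, beside summed levels of 6179 to 7436 CPM after fucoidan and 6950 to 10220 CPM after saline, so the labelled leukocytes were present in all libraries. Ptprc, the leukocyte antigen CD45, was at -0.05 (SE 0.109) and Lyz2 at -0.21 (SE 0.246) without a call; Ncr1 and Klrb1c of natural killer cells rose by 0.99 and 0.87, and Cd79a of B cells fell by 0.71. Klrb1c did not pass without any one of the fucoidan libraries (adjusted p = 0.0655 to 0.0985) or without a filter on low counts (0.147). Total counts per library were 13061703 to 15798058 after fucoidan and 15453636 to 16334932 after saline.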

How the data were processed

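The deposited table holds raw counts per gene, all of them whole. Per the submitters' processing notes, cutadapt 4.0, Trimmomatic 0.39 and HISAT2 2.2.1 were used with genome GRCm39; neither the counting program nor its annotation or use of strand is stated there. The table also deposited a gene length, of which the exons covered are not stated. Samples were grouped by their titles, which for fucoidan were followed over a treatment text that speaks of saline; the labels give 1 batch date.

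Low-count genes were removed by edgeR 4.0.16 (filterByExpr, under R 4.3.3), libraries were scaled by TMM and all 14723 remaining genes were tested with the robust quasi-likelihood test, Benjamini-Hochberg adjusted. The SE is the absolute log2 change divided by the square root of F. The exact test was two-sided. Gene lists, genes named and members were chosen with earlier results of these data known: named are the 8 genes, all tested skeleton partners, and of other lists up to 4 called genes of smallest p and 2 uncalled ones of highest CPM; some of these are not reported here. On simulated counts with 200 genes changed, up or down, 32.8, 73.1 and 93.9% of 1.5-, 2- and 4-fold changes were recovered. There 14450 genes were tested, and 6.34% of the calls were false. In the data 2025 genes were called, far more than were changed in the simulation, so these rates may not carry over. No duplicate libraries were found. Same-numbered libraries correlated across groups, with group means removed, at 0.177, 0.233 and 0.144, and differently numbered ones at -0.261 to 0.144. These values do not establish a pairing, and the titles state none. The main fit therefore used group alone, and the replicate number served as a block in an alternative only. Alternatives used DESeq2 1.42.0 and limma 3.58.1. Where animals behind the libraries are not described further, p-values measure the spread between libraries.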

Additional observations from a re-analysis of the deposited data

Results flagged for a closer look

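In the saline group, library 3 stood far from the other 4 for Slc4a1, at 418 CPM, and for Add2, at 9.49 CPM. Add2 in that library was also apart per haemoglobin count, at 1.14 counts per 10000, and as a share of the 8 genes, at 0.351%. Saline library 1 was apart for the summed leukocyte markers, at 10219 CPM. These were 5 flags among 30 group values checked by the gap to the nearest library, where chance flags about 1 in 20; the values share libraries and are not independent.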

How the results depend on the processing

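All 8 genes stayed higher under every alternative of the main fit. Without a filter on low counts 3 of them passed, with log2 changes of 2.29 for Epb42, 2.36 for Ank1, 1.90 for Sptb, 2.70 for Dmtn and 2.26 for Add2 among those that did not; 27847 genes were then tested, and 2 regulators and 11 platelet markers were called higher. Leaving out 1 library gave 6 to 8 of the 8 called, with Epb42 at 1.80 to 2.73 and Add2 at 1.94 to 3.08. It gave 928 to 2224 calls over all genes, 746 to 1368 higher and 182 to 856 lower, 1 to 2 paralogues lower, 1 to 3 precursor genes higher, and 1 to 5 leukocyte markers higher and 1 to 2 lower. The haemoglobin difference was then 8.46 to 13.8 percentage points, with exact p = 0.0571 or 0.0952, the smallest such designs allow. Per haemoglobin count Epb41 ran from -0.113 to 0.0629 and Tmod1 from -0.0717 to 0.252, and Epb41 stood at 0.191 with the replicate block.

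limma-voom called 1050 genes lower. At least 10 counts in every library left 1 paralogue higher, and upper-quartile factors left 2 leukocyte markers higher. The replicate block gave 439 genes lower, and 2 leukocyte markers higher and 1 lower; beyond these and the loss of Gypc, it changed no other call reported here. Without both libraries numbered 3, chosen after seeing the data, 979 genes were called, 836 higher and 143 lower, with 1 paralogue lower, 0 precursor genes higher, and 1 leukocyte marker higher and 0 lower. The cause of these shifts was not tested.

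Signs turned only for uncalled genes near 0. With upper-quartile factors Add1 was at -0.00723, Tmod3 at -0.0314, Piezo1 at -0.0312 and Tstd2 at -0.0169. With limma-voom Add1 was at -0.0369, Tmod3 at -0.0429, Tfrc at 0.0544, Lyz2 at 0.0380, Plekhg3 at 0.0321 and Tstd2 at -0.00965. Without both libraries numbered 3, Add1 was at -0.0464, Tmod3 at -0.0376, Tfrc at 0.151, Lmo2 at -0.0229 and Plekhg3 at 0.0796. With 1 library left out, Add1 ran from -0.0735 to 0.113, Tmod3 from -0.0722 to 0.0770, Piezo1 from -0.0258 to 0.0494, Tfrc from -0.149 to 0.128, Lmo2 from -0.0459 to 0.341, Lyz2 from -0.328 to 0.0567, Plekhg3 from -0.164 to 0.101 and Tstd2 from -0.0141 to 0.0790.

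With 3 fucoidan libraries, and 16 to 56 Dmtn and 31 to 153 Add2 counts in saline libraries, these 2 genes had the widest intervals of the 8.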
